A study of Mus musculus with 28 samples.

Results

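The cell cycle genes described here are 35 of the 54446 genes counted in each library, a list of cyclins and their kinases, replication and nucleotide genes, and genes of mitosis, found in the count tables through their Ensembl identifiers. All 35 were found. Liver and kidney RNA came from male C57BL/6 mice of 8 weeks that were gavaged for 7 days with nicotinamide mononucleotide (NMN), a precursor of NAD+, or with water as the control. The strain name is that of the labels, and the authors' methods give C57BL6J. Under the schedule of 1340 mg/kg/d (1 gavage a day) there were 4 NMN and 4 water mice, and under that of 2680 mg/kg/d (2 gavages a day) 3 of each, which gave 28 polyA RNA libraries. The labels name no transgene or deletion in any group. Whether the liver and kidney libraries that share a replicate number came from 1 mouse was not given in the labels, and the 2 schedules had their own water mice.

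A cell that leaves rest first makes D-type cyclins, which switch on kinases that release the E2F transcription factors. E2F then drives the genes of DNA replication, among them the MCM helicase subunits, the clamp PCNA and the enzymes that supply deoxynucleotides. Genes of mitosis (cyclin B, Cdk1, Aurora and Polo-like kinases, spindle motors) come on later, and in resting cells they are held down by repressor complexes at their promoters. In the adult liver and kidney most cells are at rest, so the messenger RNA of mitotic genes is scarce, and it is widely read as a sign of the few cells that divide. In whole tissue, fewer cycling cells and less RNA per cell cannot be told apart.

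Between 12688324 and 33872983 reads were assigned to genes per library. Depth was not even across the groups. The kidney libraries of NMN mice held 13174264 to 14006288 reads at 1340 mg/kg/d, below all 4 water libraries (15354270 to 15696435), and 22922994 to 33872983 at 2680 mg/kg/d, above all 3 water libraries (16358886 to 18983689). In the liver the ranges overlapped, with 12925839 to 15186601 reads for water and 12688324 to 16455228 for NMN at 1340 mg/kg/d, and with 17573184 to 20635269 and 18193588 to 20018581 at 2680 mg/kg/d. Levels are given as CPM (reads of a gene scaled to a common library size) on library sizes scaled by TMM over all 28 libraries, and levels of different genes are compared per kilobase of exon (RPKM).

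At this depth many of the genes were close to the lower limit of counting, and more so in the liver. A liver library had 1 to 7 of the 35 genes at 0 reads, and 12 to 20 of them under 10 reads. A kidney library had at most 1 gene at 0, and 1 to 10 under 10 reads. Bub1, a kinase of the spindle checkpoint, had 0 reads in all 6 livers sequenced at 2680 mg/kg/d, and a count of 0 allows up to 3 reads in a library. Such limits cover counting error only, since reads were not told apart from their PCR copies.

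The first question was how the levels of these genes stand in each organ without NMN. In the kidneys of water mice Ccnd1 (cyclin D1, which starts the way out of rest) was the most abundant per length, at a mean of 20.7 RPKM at 1340 mg/kg/d and 16.5 at 2680 mg/kg/d, followed by Pcna at 8.35 and 9.44 RPKM, and the ranges of the mice did not overlap between these neighbours. In the liver Pcna led, at 12.3 and 12.9 RPKM, and Tk1 (thymidine kinase 1) was next, at 8.101 and 5.98 RPKM. The Pcna and Tk1 ranges overlapped at 1340 mg/kg/d (10.1 to 14.4 against 6.68 to 10.9 RPKM) and not at 2680 mg/kg/d (12.2 to 13.5 against 4.13 to 7.69 RPKM). Mcm7 and Ccnd1 were the third and the fourth in the liver under both schedules. Bub1, Kif11 (a spindle motor) and Ccnb1 (cyclin B1) were the lowest 3 in both kidney groups and in the liver at 1340 mg/kg/d, between 0.00611 and 0.1197 RPKM. In the liver at 2680 mg/kg/d, Cenpe (a kinetochore motor) stood in place of Kif11 among them. Exons of 12 members overlap those of another gene, namely Ccnd1, Ccne2, Ccna2, Cdk2, Foxm1, Mcm7, Tk1, Top2a, Plk1, Cdc20, Kif20a and Nusap1. Reads were counted without strand, so the levels of these genes are uncertain to that extent.

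Many members differed between the organs of water mice, in both directions. At 1340 mg/kg/d, 16 of the 29 members that could be tested passed an adjusted p of 0.05 in edgeR (quasi-likelihood test, Benjamini-Hochberg adjustment), 6 higher and 10 lower in the liver than in the kidney, against 66.9% of all 14599 genes tested (30.9% higher and 36.1% lower). At 2680 mg/kg/d it was 13 of 26, 5 higher and 8 lower, against 70.5% of 14844 genes (31% higher and 39.5% lower). Their median log2 fold change of liver over kidney was -0.20 and -0.38, where the median of all genes tested was -0.10 and -0.17. With upper quartile scaling the median of all genes moved to -0.25 and -0.33 and that of the members to -0.35 and -0.54, and DESeq2 (-0.71 and -0.67) and no filter (-0.75 and -0.69) also gave lower medians of the members. With a minimum of 10 counts in every library, which tests fewer members, their median was above 0 (0.11 and 0.038), so its sign depends on which members are tested. Of the 26 members tested under both schedules, 6 were called higher in the kidney in both (Ccna2, Ccnd1, Mcm2, Mcm6, Nusap1 and Top2a), 3 higher in the liver in both (Pcna, Rrm2 and Tk1), and 7 in neither. Ccna2, Nusap1 and Top2a had too few liver reads for the NMN test under either schedule and entered here through their kidney reads. The counts called lower in the liver thus depend on the filter, and with a minimum of 10 counts in every library they were 4 and 3. They cannot say in which organ such genes are more often higher.

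Among the cyclins, Ccnd1 differed most clearly. Its kidney levels in water mice were 76.2, 103, 118 and 92.5 CPM at 1340 mg/kg/d and 62.3, 79.1 and 91.8 at 2680 mg/kg/d, and its liver levels 16.5, 13.5, 10.05 and 17.2 and 14.7, 9.13 and 8.48 CPM. Every kidney library lay above every liver library. The log2 fold change of liver over kidney was -2.79 ± 0.19 (SE, edgeR, adjusted p = 2.27e-08) and -2.88 ± 0.21 (adjusted p = 4.67e-07). Ccna2 (cyclin A2, active in S phase and G2) was also lower in the liver, by log2 fold changes of -1.70 and -2.04 (edgeR, adjusted p = 0.00472 and 0.0111), and without the second kidney mouse of the 2680 mg/kg/d schedule that call was lost, at -1.77. With 1 library left out, the Ccna2 estimate at 2680 mg/kg/d ran from -3.12 to -1.53. Ccna2 had 2 to 10 reads in a liver library at 1340 mg/kg/d and 1 to 13 at 2680 mg/kg/d, water or NMN. That was too few for the NMN test in the liver, so Ccna2 entered the organ test through its kidney reads. Cdk1, the kinase that drives entry into mitosis, did not pass the test. It stood at 1.804, 1.07, 1.15 and 0.709 CPM in the kidney and 0.851, 0.817, 1.03 and 1.92 CPM in the liver under the 1340 mg/kg/d schedule, with a log2 fold change of -0.05 (95% interval -0.97 to 0.87), and the interval at 2680 mg/kg/d was -0.96 to 1.23. Ccne2 (cyclin E2) was called higher in the liver at 1340 mg/kg/d (1.11, edgeR, adjusted p = 0.0299), a call that was lost when any 1 of 5 libraries was left out and with upper quartile scaling, and not at 2680 mg/kg/d (-0.90, adjusted p = 0.0893). E2f1 was likewise called higher only in the 1340 mg/kg/d schedule (0.79, adjusted p = 0.0368), was lost when any 1 of 5 libraries was left out, with upper quartile scaling, with no filter and with a minimum of 10 counts, and had 0.50 at 2680 mg/kg/d (adjusted p = 0.185). Whether the schedules differed in these organ differences was not tested.

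The MCM subunits did not move as 1 group between the organs. Mcm2, a subunit of the hexameric helicase that unwinds DNA ahead of the fork, had 10.9, 10.3, 10.4 and 9.67 CPM in the kidney and 4.04, 2.54, 3.47 and 2.38 CPM in the liver at 1340 mg/kg/d, and 8.31, 8.79 and 10.1 against 2.2, 2.92 and 2.91 CPM at 2680 mg/kg/d. The organs did not overlap. Mcm2 was lower in the liver by log2 fold changes of -1.76 ± 0.22 and -1.79 ± 0.23 (SE, edgeR, adjusted p = 9.2e-06 and 3.97e-05), and Mcm6 by -1.84 ± 0.24 and -2.34 ± 0.19 (adjusted p = 1.38e-05 and 9.87e-07). Mcm4 was called lower in the liver at 1340 mg/kg/d (-1.08, edgeR, adjusted p = 0.00159) and had -0.32 at 2680 mg/kg/d, where it was not called (adjusted p = 0.433). By contrast Mcm3 (0.96) and Mcm7 (0.39) were higher in the liver at 2680 mg/kg/d (edgeR, adjusted p = 0.0046 and 0.0338), the Mcm7 call being lost when any 1 of 4 libraries was left out, with upper quartile scaling, with no filter and with a minimum of 10 counts. Mcm5 passed the test under neither schedule.

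Pcna, the sliding clamp that holds the polymerase on DNA, was also higher in the liver. It stood at 20.7, 19.9, 18.98 and 20.6 CPM in the kidney and 24.4, 29.9, 29.8 and 34.5 CPM in the liver at 1340 mg/kg/d, and at 23.2, 23.4 and 21.3 against 29.2, 32.3 and 31.3 CPM at 2680 mg/kg/d. Each liver library was above each kidney library of its schedule, and the log2 fold changes were 0.54 ± 0.14 and 0.42 ± 0.12 (SE, edgeR, adjusted p = 0.00347 and 0.0107). With upper quartile scaling the second was 0.26 and not called, and it was not called without the third kidney mouse (0.37).

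Of the nucleotide genes, Tk1 showed the largest difference in favour of the liver, with the limit that its exons overlap another gene. Tk1 salvages thymidine, and its level was 8.93, 6.35, 8.29 and 7.36 CPM in the kidney against 34.99, 41.9, 56.8 and 34.7 CPM in the liver under the 1340 mg/kg/d schedule, with log2 fold changes of 2.42 ± 0.19 and 2.48 ± 0.22 (SE, edgeR, adjusted p = 9.46e-08 and 2.23e-06). Rrm2, the regulated subunit of ribonucleotide reductase, was higher in the liver as well, by 1.06 ± 0.38 and 1.82 ± 0.34 (adjusted p = 0.0248 and 0.000584). The first of these rests on single mice, as without the fourth liver mouse it was 0.54 and without the fourth kidney mouse 0.94, neither of them called. Rrm1 (the large subunit of the same enzyme) and Tyms (thymidylate synthase) did not pass the test in either schedule.

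Of the members of chromosome structure, mitotic kinases and the spindle, 4 of 10 tested at 1340 mg/kg/d and 4 of 8 at 2680 mg/kg/d were called higher in the kidney, and 1 and 0 higher in the liver, where 36.1% and 39.5% of all genes were called higher in the kidney. Each gene called higher in the kidney here had too few reads for the NMN test in the liver of its schedule. These were Mki67, Top2a, Plk1 and Nusap1 at 1340 mg/kg/d, and Top2a, Cenpe, Nusap1 and Tpx2 at 2680 mg/kg/d. They entered the organ test through their kidney reads, so these counts cannot say how often such genes are higher in either organ. Mki67, which codes for the proliferation antigen Ki-67, had 123, 77, 64 and 96 reads in the 4 kidney libraries of the 1340 mg/kg/d water mice and 10, 8, 1 and 2 reads in the 4 liver libraries, and 45, 79 and 43 against 3, 33 and 10 reads at 2680 mg/kg/d. Scaled to library size, the organs were apart at 1340 mg/kg/d and overlapped at 2680 mg/kg/d, where the second liver mouse stood above both others. The log2 fold change of liver over kidney was -2.99 ± 0.51 (SE, edgeR, adjusted p = 0.000176) and -1.12 ± 0.62 (adjusted p = 0.129), and without that second liver mouse the latter was -2.25 and called. With a different library left out it was as small as -0.58. Top2a, the topoisomerase that untangles chromosomes before they part, had 3.47, 2.81, 1.996 and 1.995 CPM in the kidney and 1.06, 0.726, 0.188 and 0.5497 CPM in the liver under the 1340 mg/kg/d schedule, with log2 fold changes of -2.05 ± 0.44 and -1.29 ± 0.49 (adjusted p = 0.00112 and 0.0339). Its second call was lost in 4 of the 6 fits that left out 1 library, and in DESeq2. Nusap1, a spindle microtubule protein, was lower in the liver, with log2 fold changes of -2.77 ± 0.39 and -2.60 ± 0.57 (SE, edgeR, adjusted p = 2.84e-05 and 0.00174).

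Further mitotic genes (Foxm1, Plk1, Cenpe and Tpx2) were called higher in the kidney under 1 schedule each. All of them had too few liver reads for the NMN test in that organ and entered this test through their kidney reads. A gene scarce in both organs was not tested, so these calls describe single genes and no direction of the group. Foxm1, a transcription factor of mitotic genes, and Plk1 (Polo-like kinase 1) were called at 1340 mg/kg/d, where Foxm1 had 1, 4, 4 and 0 liver reads and 26, 22, 19 and 20 kidney reads and Plk1 2, 2, 0 and 2 against 18, 18, 15 and 18, with log2 fold changes of -2.16 and -2.38 (edgeR, adjusted p = 0.00622 and 0.00294). Cenpe and Tpx2 (a spindle assembly factor) were called at 2680 mg/kg/d, where Cenpe had 4, 1 and 0 reads in the 3 liver libraries and 75, 60 and 51 in the 3 kidney libraries, and Tpx2 1, 1 and 2 against 16, 29 and 20 reads. Aurka (Aurora kinase A, of the centrosome) went the other way, with 0.925, 0.341, 0.976 and 0.709 CPM in the kidney and 2.34, 4.63, 2.44 and 1.83 CPM in the liver at 1340 mg/kg/d, a log2 fold change of 1.90 ± 0.43 (SE, edgeR, adjusted p = 0.00143), and at 2680 mg/kg/d 0.85 (adjusted p = 0.166).

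The further lists were called in both directions as well. Of 63 further genes of G2 and mitosis, 6 were called higher and 13 lower in the liver under each schedule (33 and 31 tested), with medians of -0.43 and -0.95. Only 19 and 23 genes of this list had enough reads for the NMN test in the liver. Others may have entered the organ test through the kidney, so these counts are not an even comparison. Of 34 further genes of S phase, 6 were called higher and 5 lower at 1340 mg/kg/d, and 9 and 4 at 2680 mg/kg/d (29 tested in each), with medians of -0.05 and 0.13. Of 28 brakes on the cell cycle, 2 were called higher and 8 lower, and 5 and 10 (26 tested in each). Of 11 further G1 genes, 2 were called higher and 3 lower, and 1 and 3 (10 tested in each). Of all genes, 66.9% and 70.5% were called.

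**Figure D1:**
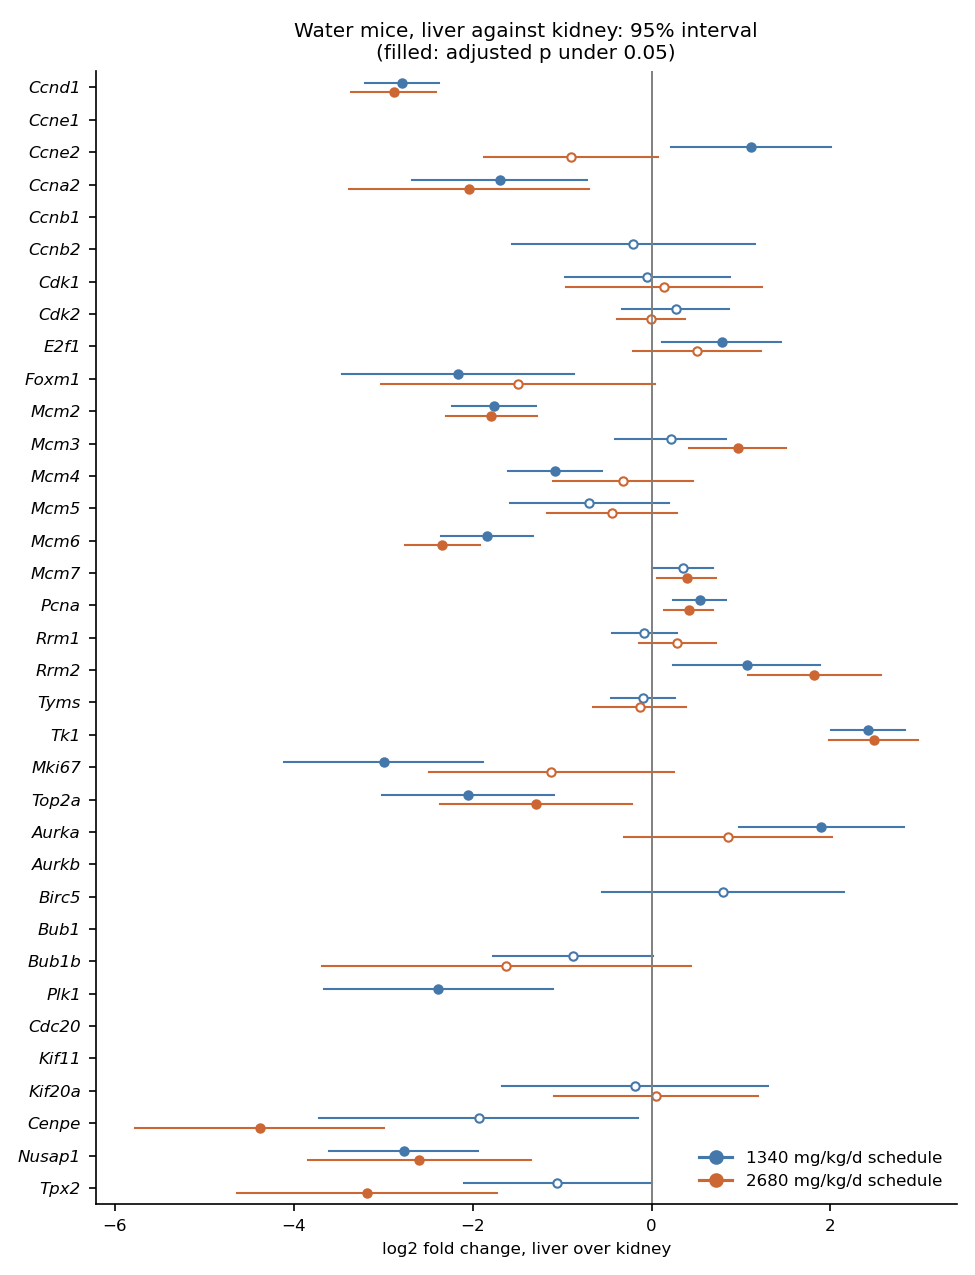
Log2 fold change of liver over kidney in water mice for each member tested (horizontal axis), with 95% intervals, for the 1340 mg/kg/d (blue) and 2680 mg/kg/d (orange) schedules; filled points passed an adjusted p of 0.05 in edgeR. Ccnd1, Mcm2, Mcm6, Nusap1, Ccna2 and Top2a lie left of 0 and Tk1, Rrm2 and Pcna right of 0 under both schedules.

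Traces of the other organ were looked for with marker genes. In the water livers at 1340 mg/kg/d Umod, the most abundant marker of nephron segments beyond the proximal tubule, was at a mean of 3.97 CPM, against 1521 CPM in the kidney libraries of that schedule. At 2680 mg/kg/d it was at 0.305 CPM in the liver and 1243 CPM in the kidney. Alb, made by hepatocytes, was the most abundant liver marker, at 102346 and 174224 CPM in the liver of water mice. Kap, an androgen-driven gene of the proximal tubule, was at 15511 and 16503 CPM in the kidney. The labelled organs thus carried their own defining markers.

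The promoters of these genes were examined because genes of replication and of mitosis are controlled through different short sequences. RefSeq promoters (build GRCm38.p6, from 250 bases before to 50 after the start) were matched by symbol for 27 of the 35 members. The letters TTTGAA or TTCGAA, which match the cell cycle homology region through which mitotic genes are repressed at rest, were present on either strand in 12 of the 27 genes (44.4%), against 21.7% of the 27025 genes in the whole promoter set. CCAAT was present in 21 of 27 (77.8%) against 41.1%, and TTTCCCGC or TTTGGCGC, which match the E2F site, in 5 of 27 (18.5%) against 1.8%. The E2F letters were in 4 of the 6 matched genes of licensing and replication, and in none of the 6 mitotic kinase and checkpoint genes, 5 of which held TTTGAA or TTCGAA. In the 54 matched genes of a longer G2 and mitosis list, 41 (75.9%) held TTTGAA or TTCGAA. A match of letters is a description and not a bound site. TTCGAA reads the same on both strands, and the searched letters do not contain one another.

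The 150 bases before the start of 6 members are shown as examples of these classes: 2 genes of chromosome structure that were called higher in the kidney at 1340 mg/kg/d (Mki67, Top2a), a mitotic kinase gene with the same letters that was not called between the organs (Cdk1), a helicase gene higher in the kidney (Mcm6), and 2 genes higher in the liver (Pcna, Tk1). All 6 are on the minus strand and are written 5′ to 3′ along the gene, with the searched letters on either strand in capitals (CCAAT on the other strand reads ATTGG, and TTTGAA reads TTCAAA).
Mki67 (chr7:135716380-135716529): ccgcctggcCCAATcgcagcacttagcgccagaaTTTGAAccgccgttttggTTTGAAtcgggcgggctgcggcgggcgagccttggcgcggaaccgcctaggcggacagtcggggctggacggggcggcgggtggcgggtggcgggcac
Top2a (chr11:99024190-99024339): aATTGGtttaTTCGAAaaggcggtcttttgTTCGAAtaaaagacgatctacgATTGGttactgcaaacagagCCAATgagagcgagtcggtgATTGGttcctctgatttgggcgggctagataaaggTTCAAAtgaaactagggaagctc
Cdk1 (chr10:69352913-69353062): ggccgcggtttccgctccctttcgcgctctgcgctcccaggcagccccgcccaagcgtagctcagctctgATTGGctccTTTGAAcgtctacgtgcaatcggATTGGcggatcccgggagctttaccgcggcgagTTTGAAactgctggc
Mcm6 (chr1:128359706-128359855): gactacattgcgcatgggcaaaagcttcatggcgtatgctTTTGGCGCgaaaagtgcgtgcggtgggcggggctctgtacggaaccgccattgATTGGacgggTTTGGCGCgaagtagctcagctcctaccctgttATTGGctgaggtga
Pcna (chr2:132253181-132253330): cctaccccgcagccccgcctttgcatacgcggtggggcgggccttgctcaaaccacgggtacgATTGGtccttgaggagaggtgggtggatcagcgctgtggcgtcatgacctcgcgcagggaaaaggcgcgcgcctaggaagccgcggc
Tk1 (chr11:117826015-117826164): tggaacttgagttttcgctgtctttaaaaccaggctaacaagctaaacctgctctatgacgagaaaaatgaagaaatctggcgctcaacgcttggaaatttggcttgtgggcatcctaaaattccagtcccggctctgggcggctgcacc
Mki67, Top2a and Cdk1 all hold the TTTGAA or TTCGAA letters and CCAAT, while Mcm6 holds TTTGGCGC at 2 places beside CCAAT. Pcna holds CCAAT alone in this stretch, and Tk1 none of the searched letters.

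The main question was whether NMN moved these genes. In none of the 4 comparisons of NMN with water did any member pass an adjusted p of 0.05 in edgeR. The share of all genes that did so was 0.0161% of 12449 in the liver and 0.12% of 14972 in the kidney at 1340 mg/kg/d, and 7.08% of 12477 in the liver and 0.4% of 15245 in the kidney at 2680 mg/kg/d. At an unadjusted p of 0.05, 1 of 18 members tested passed in the liver at 1340 mg/kg/d (6.86% of all genes), 3 of 20 in the liver at 2680 mg/kg/d (24.6%), 1 of 29 in the kidney at 1340 mg/kg/d (8.94%) and 4 of 29 in the kidney at 2680 mg/kg/d (11.1%). DESeq2 called no member in any of the 4 either, among the 19, 19, 19 and 32 members to which it gave an adjusted p in the liver at 1340 and 2680 and the kidney at 1340 and 2680 mg/kg/d, where it called 0.573%, 11.6%, 1.23% and 1.52% of all genes with an adjusted p. The members that were tested are those with enough reads, and the rest (17 and 15 in the liver, 6 and 6 in the kidney) had at most 30 reads in a library.

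The precision differed between genes. Pcna was the most precise, with 95% intervals reaching 0.33, 0.34, 0.22 and 0.19 on the log2 scale to either side of its estimate in the liver at 1340 and 2680 and the kidney at 1340 and 2680 mg/kg/d. The widest were 1.19 (Cdk1) and 1.89 (Mki67) in the liver, and 1.18 (Ccnb2) and 1.43 (Cdc20) in the kidney. The whole interval lay within a 2-fold change in either direction for 11 of 18 and 7 of 20 members in the liver and for 18 of 29 and 18 of 29 in the kidney. For the others the interval did not exclude a change of that size.

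**Figure D2:**
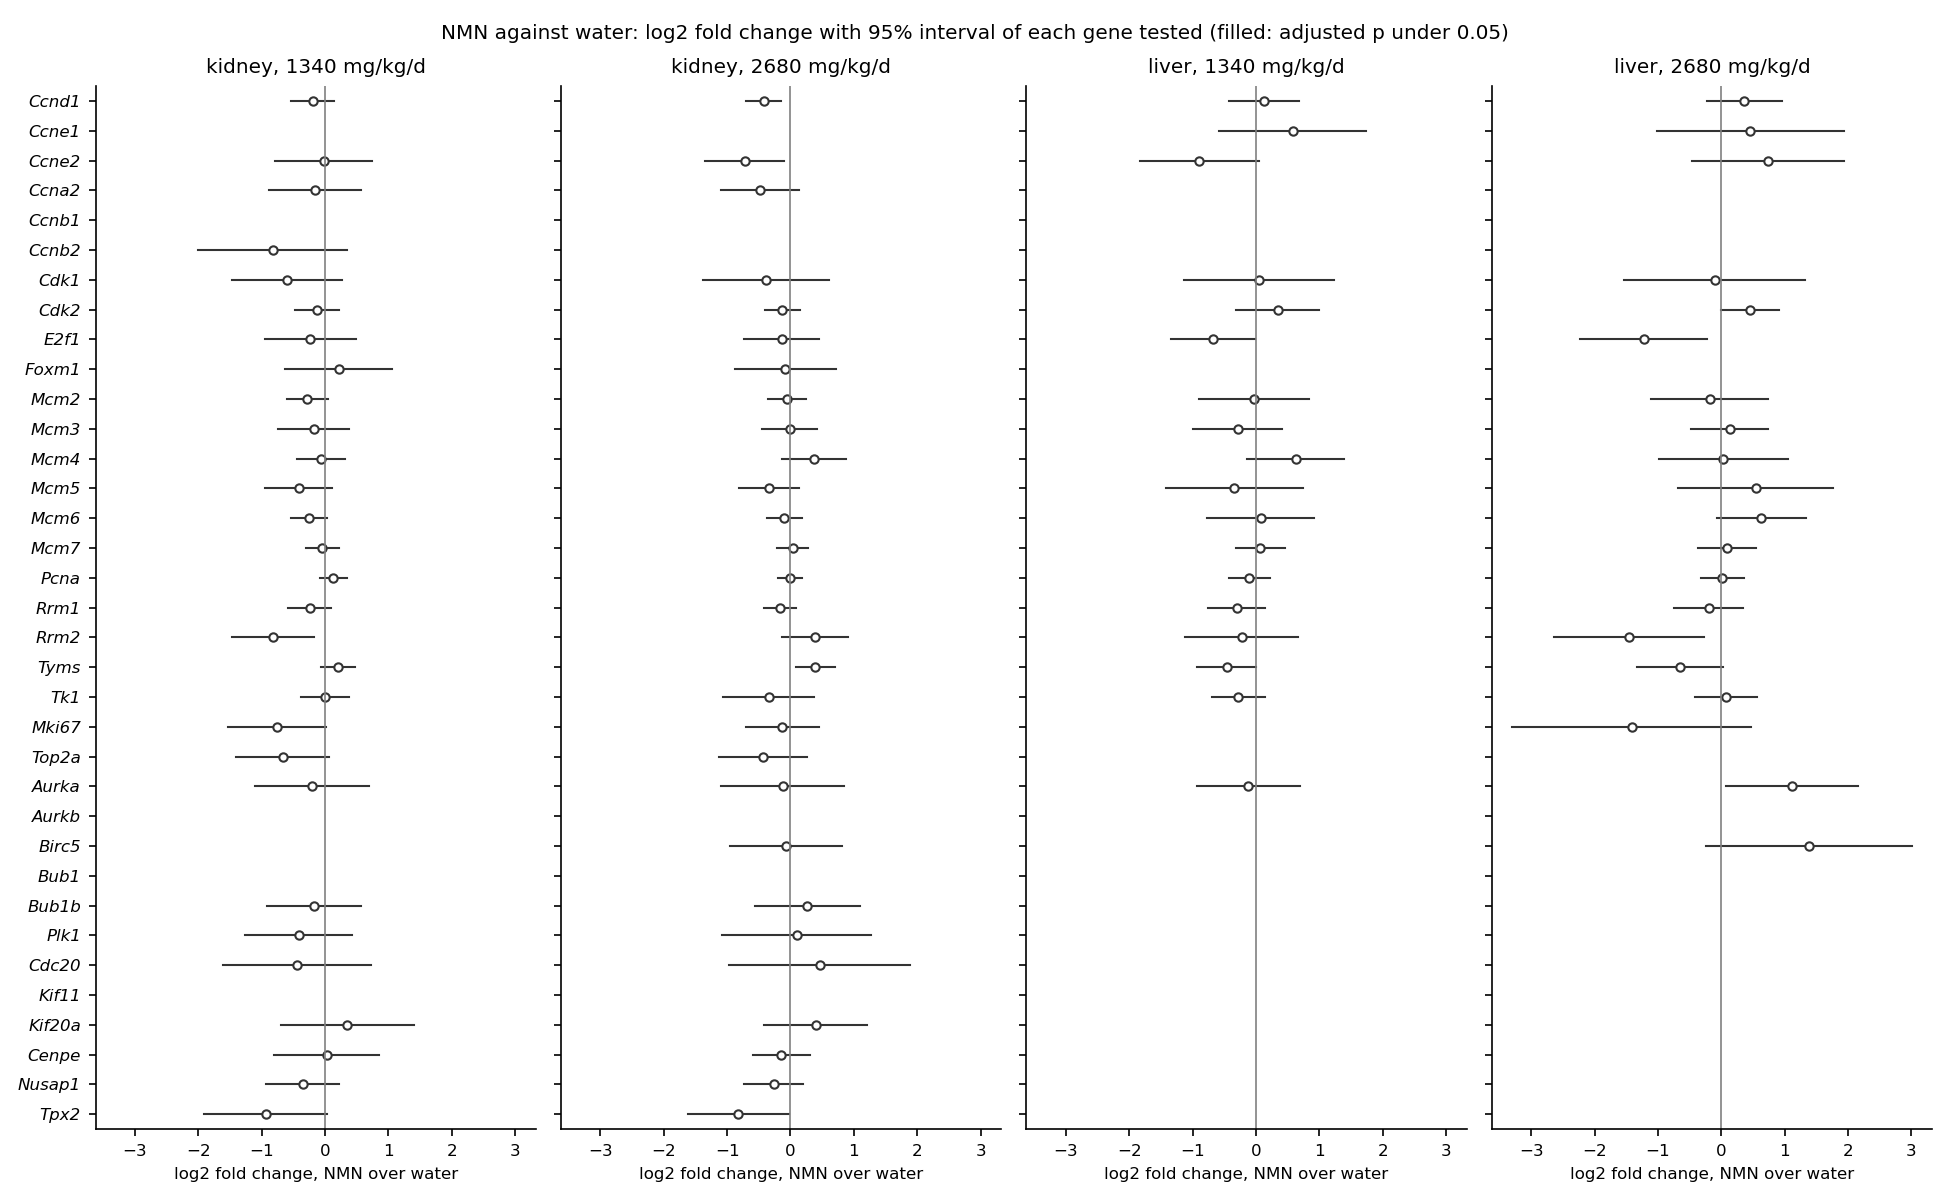
Log2 fold change of NMN over water (horizontal axis) with 95% intervals for every member tested, in the 4 combinations of organ and schedule; a filled point would have an adjusted p under 0.05 in edgeR, and a gene without a point was not tested. No point is filled, and the intervals are narrowest for Pcna.

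In the kidney at 1340 mg/kg/d, 24 of the 29 members tested were lower on average with NMN and 5 higher, with a median log2 fold change of -0.21, where 49.7% of all genes tested were lower and their median was 0.0011. All 6 cyclins and kinases tested were lower, as were 6 of 7 genes of licensing and replication, both genes of chromosome structure and all 4 mitotic kinase and checkpoint genes tested. Genes of spindle motors and kinetochore were 2 higher and 2 lower, transcription factors 1 and 1, and genes of nucleotide supply 1 and 3. None of these passed the test, and the groups of mice overlapped for every member but Tyms (4.99% of all genes did not overlap).

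Rrm2 had the smallest p in this comparison. Its level was 3.89, 4.22, 3.902 and 2.75 CPM in the water kidneys and 3.77, 1.47, 1.31 and 1.82 CPM in the NMN kidneys. The first NMN mouse stood within the water range, and the other three were below it. The log2 fold change was -0.83 ± 0.31 (SE, 95% interval -1.48 to -0.18, unadjusted p = 0.0155, adjusted p = 0.418 in edgeR). Mki67 had 5.69, 3.28, 2.84 and 4.26 CPM with water and 4.61, 1.21, 1.51 and 2.15 CPM with NMN, with a log2 fold change of -0.76 ± 0.36 (95% interval -1.54 to 0.0093, edgeR, adjusted p = 0.56), and Tpx2 1.57, 0.682, 0.887 and 0.798 CPM with water and 0.838, 0.202, 0.584 and 0.4302 CPM with NMN, with -0.93 ± 0.46 (95% interval -1.90 to 0.039, adjusted p = 0.571). In both genes the first NMN mouse was again the highest of its group, and the groups overlapped. The first NMN mouse was the highest of its group for Top2a too, at 3.47, 2.81, 1.996 and 1.995 CPM with water and 2.67, 0.707, 1.41 and 1.67 CPM with NMN (-0.67 ± 0.35, adjusted p = 0.59).

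Ccnd1, Mcm2, Cdk1 and Pcna also overlapped between the groups in these kidneys. Ccnd1 was at 76.2, 103, 118 and 92.5 CPM with water and 108, 91.5, 76.4 and 65.3 CPM with NMN (log2 fold change -0.19 ± 0.16, 95% interval -0.54 to 0.15). Mcm2 was at 10.9, 10.3, 10.4 and 9.67 CPM with water and 11.2, 8.13, 7.01 and 7.79 CPM with NMN (-0.28 ± 0.16, interval -0.61 to 0.054), and Cdk1 at 1.804, 1.07, 1.15 and 0.709 CPM with water and 1.15, 1.01, 0.487 and 0.478 CPM with NMN (-0.60 ± 0.41, interval -1.47 to 0.27). Pcna was at 20.7, 19.9, 18.98 and 20.6 CPM with water and 22.6, 20.7, 20.6 and 23.8 CPM with NMN, with an estimate of 0.13 and an interval from -0.087 to 0.34. With 1 library left out, Cdk1 ran from -0.84 (without the first NMN mouse) to -0.32 (without the first water mouse), Ccnd1 from -0.32 (without the first NMN mouse) to -0.075 (without the third water mouse), Mcm2 from -0.42 to -0.20 and Pcna from 0.083 to 0.16.

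In the kidney at 2680 mg/kg/d, 21 of 29 members were lower on average with NMN and 8 higher, with a median of -0.12 (49.2% of all genes tested were lower, with a median of 0.0038). All 5 cyclins and kinases tested, both transcription factors and both genes of chromosome structure were lower. Mitotic kinase and checkpoint genes were 3 higher and 2 lower, and genes of nucleotide supply 2 and 2. Genes of licensing and replication were 2 higher and 5 lower, and those of spindle motors and kinetochore 1 and 3. The mice did not overlap for 6 members, Ccnd1, Ccne2, Mcm5, Rrm1 and Tpx2 lower and Tyms higher, which is 6 of 29 where 17.1% of all genes did not overlap.

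Ccnd1 had the smallest p of these. Its level was 62.3, 79.1 and 91.8 CPM in the water kidneys and 60.9, 59.03 and 53.2 CPM in the NMN kidneys. All 3 NMN mice were below all 3 water mice, by a narrow margin of 60.9 against 62.3 CPM at the nearest pair. The log2 fold change was -0.42 ± 0.13 (SE, 95% interval -0.71 to -0.14, unadjusted p = 0.0069, adjusted p = 0.232 in edgeR). When no filter on low counts was used, the same gene had -0.40 and an adjusted p of 0.0016. Tyms, which makes the thymidylate of DNA, was at 12.4, 9.59 and 14.1 CPM with water and 14.8, 17.6 and 14.9 CPM with NMN (0.39 ± 0.14, unadjusted p = 0.0162, adjusted p = 0.315), and without the filter it had 0.41 and an adjusted p of 0.0437. Without the second water mouse the estimate of Tyms was 0.25 (edgeR, adjusted p = 0.522). Ccne2 was at 1.596, 2.304 and 2.01 CPM with water and 1.21, 1.53 and 0.8601 CPM with NMN (-0.72 ± 0.29, edgeR, unadjusted p = 0.0264, adjusted p = 0.365). Exons of Ccnd1 (with LTO1) and Ccne2 (with Ints8) overlap a gene on the other strand, as do exons of 10 further members with 1 or more genes on either strand, and since reads were counted without strand their values are uncertain to that extent.

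Mki67, Top2a, Cdk1, Mcm2 and Pcna overlapped between the groups in these kidneys. Mki67 was at 1.84, 3.71 and 2.01 CPM with water and 2.19, 2.41 and 2.28 CPM with NMN, a log2 fold change of -0.13 ± 0.27 (SE, 95% interval -0.71 to 0.46). The NMN mice lay within the water range, and without the second water mouse the estimate turned to 0.26. Top2a was at 1.31, 1.93 and 0.889 CPM with water and 1.02, 0.918 and 1.09 CPM with NMN (-0.43 ± 0.32, interval -1.13 to 0.26) and Cdk1 at 0.491, 0.705 and 0.795 CPM with water and 0.196, 0.612 and 0.674 CPM with NMN (-0.38 ± 0.46, interval -1.38 to 0.61). With 1 library left out, Top2a ran from -0.66 (without the third water mouse) to -0.12 (without the second), and Cdk1 from -0.70 (without the third NMN mouse) to -0.030 (without the first). Mcm2 was at 8.31, 8.79 and 10.1 CPM with water and 7.43, 9.35 and 9.23 CPM with NMN, with an interval of -0.36 to 0.24. Pcna, at 23.2, 23.4 and 21.3 CPM with water and 21.9, 22.9 and 22.9 CPM with NMN, had the narrowest interval of all, -0.19 to 0.19 on the log2 scale.

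In the liver at 1340 mg/kg/d, 11 of 18 members tested were lower with NMN and 7 higher, with a median log2 fold change of -0.11 (50.5% of all genes tested were lower, with a median of -0.0027). None of the 5 genes of spindle motors and kinetochore and neither gene of chromosome structure had enough reads to be tested. All 4 genes of nucleotide supply were lower, at estimates between -0.46 and -0.23, and 4 of the 5 cyclins and kinases tested were higher.

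E2f1 was the 1 member whose mice did not overlap in this comparison (3.54% of all genes did not). E2f1 is the activator of replication genes that cyclin-dependent kinases release, and its level was 4.15, 3.18, 3.85 and 4.31 CPM with water and 2.67, 2.998, 1.79 and 2.13 CPM with NMN. The log2 fold change was -0.68 ± 0.31 (SE, 95% interval -1.34 to -0.017, unadjusted p = 0.0451, adjusted p = 0.719 in edgeR). Tyms had 9.04, 12.7, 10.2 and 12.6 CPM with water and 9.03, 6.91, 9.47 and 6.69 CPM with NMN (-0.46 ± 0.21, adjusted p = 0.729), and Ccne2 2.55, 0.998, 3.47 and 2.47 against 1.23, 1.08, 1.19 and 1.55 CPM (-0.89 ± 0.43, adjusted p = 0.758). For Ccne2 the second water mouse lay below all NMN mice while the other three lay above them.

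The remaining genes followed in every library did not separate the groups in these livers. Mki67 had 10, 8, 1 and 2 reads in the water livers and 2, 6, 5 and 15 in the NMN livers, and Top2a 10, 8, 2 and 6 reads with water and 8, 10, 6 and 6 reads with NMN, both too few for the test. Ccnd1 was at 16.5, 13.5, 10.05 and 17.2 CPM with water and 14.1, 20.7, 18.2 and 9.02 CPM with NMN (log2 fold change 0.13 ± 0.25, interval -0.42 to 0.68), and Pcna at 24.4, 29.9, 29.8 and 34.5 CPM with water and 26.6, 26.3, 29.5 and 26.7 CPM with NMN (-0.10 ± 0.15, interval -0.43 to 0.22). Both overlapped. Cdk1 (0.851, 0.817, 1.03 and 1.92 against 0.308, 1.92, 0.938 and 1.55 CPM) and Mcm2 (4.04, 2.54, 3.47 and 2.38 against 3.59, 1.17, 2.899 and 4.36 CPM) had estimates of 0.054 and -0.033, with intervals of -1.13 to 1.24 and -0.90 to 0.84.

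The liver at 2680 mg/kg/d was the comparison with the most genes called, 883, and none of them was a member. Of the 20 members tested, 13 were higher and 7 lower, with a median of 0.081 (49.6% of all genes tested were lower, with a median of 0.0045), and 5 of 20 did not overlap (Aurka, Cdk2 and Mcm6 higher, E2f1 and Rrm2 lower) where 29.2% of all genes did not.

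Rrm2 and E2f1 had the smallest p in this comparison, and both were lower with NMN. E2f1 was at 2.73, 2.62 and 2.08 CPM in the water livers and 1.21, 0.979 and 0.8997 CPM in the NMN livers, so each NMN mouse was well below each water mouse. Its log2 fold change was -1.22 ± 0.46 (SE, 95% interval -2.22 to -0.22, unadjusted p = 0.0208, adjusted p = 0.13 in edgeR). Rrm2 was at 3.79, 7.48 and 6.73 CPM with water and 0.538, 3.29 and 2.699 CPM with NMN, a log2 fold change of -1.46 ± 0.54 (interval -2.64 to -0.28, unadjusted p = 0.0202, adjusted p = 0.128). The adjusted p of Rrm2 was 0.00808 when no filter on low counts was used, with a log2 fold change of -1.45. In these livers not every same-numbered pair of libraries correlated above 0.1 (mean r of 0.0958), so the numbers were not taken to pair them. Each library did correlate best with its own number, in 3 of 3 cases. With a block on the replicate number, Rrm2 had -1.63 (edgeR, adjusted p = 0.0438). Aurka had the opposite sign, at 1.37, 2.096 and 0.748 CPM with water and 2.76, 3.85 and 2.399 CPM with NMN (1.12 ± 0.48, edgeR, unadjusted p = 0.0387, adjusted p = 0.177).

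The other genes followed throughout did not separate the groups. Mki67 had 3, 33 and 10 reads with water and 4, 4 and 10 with NMN, and its estimate of -1.42 ± 0.86 (SE, interval -3.30 to 0.47) came largely from the second water mouse, since without it the value was -0.28. Top2a had 10, 5 and 7 reads with water and 16, 5 and 3 reads with NMN and was not tested. Ccnd1 was at 14.7, 9.13 and 8.48 CPM with water and 9.95, 16.4 and 14.5 CPM with NMN (0.36 ± 0.27, interval -0.22 to 0.95), and the estimate ran from 0.22 without the second NMN mouse to 0.64 without the first water mouse. Pcna was at 29.2, 32.3 and 31.3 CPM with water and 27.96, 32.7 and 31.9 CPM with NMN (0.019 ± 0.16, interval -0.33 to 0.36). Mcm2 (2.2, 2.92 and 2.91 against 2.62, 2.798 and 1.499 CPM) and Cdk1 (1.14, 0.674 and 0.416 against 0.739, 0.839 and 0.4498 CPM) had intervals of -1.11 to 0.74 and -1.53 to 1.33.

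**Figure D3:**
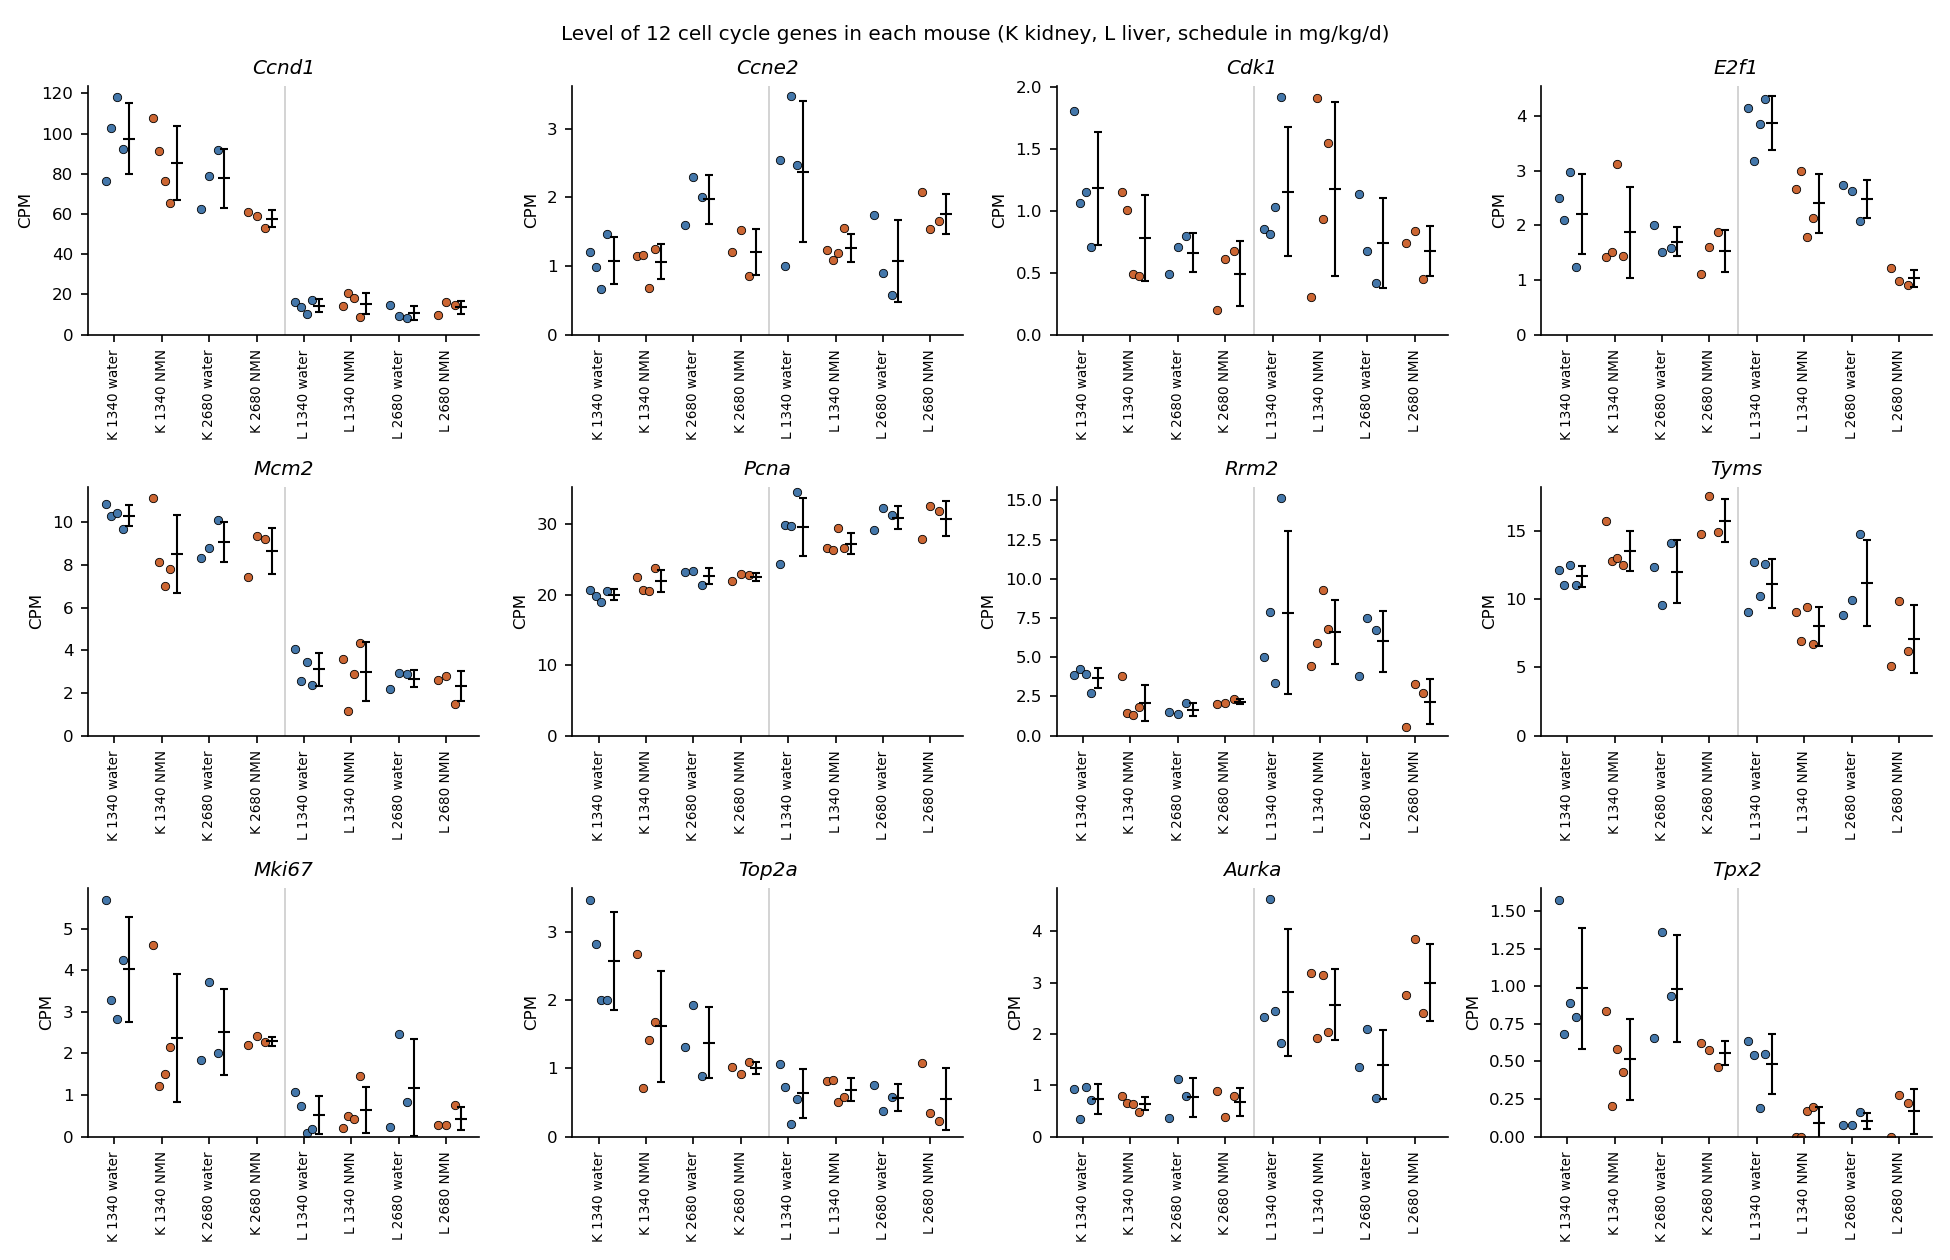
CPM of 12 members in every library (points; water blue, NMN orange), by organ (K kidney, L liver) and schedule in mg/kg/d, with the group mean and SD beside the points. Each kidney is above each liver for Ccnd1, and the 4 or 3 NMN livers are below the water livers of their schedule for E2f1.

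An interaction term, fitted to all 14 libraries from 1 organ, asked whether the NMN effect depended on the schedule. No member passed an adjusted p of 0.05 in edgeR, where 0.0746% of 13412 genes did in the liver and 0.00625% of 15989 in the kidney, and DESeq2 called 99 and 10 genes (0.86% and 0.0774%), none of them a member. At an unadjusted p of 0.05, 1 member passed in each organ, where 8.6% and 4.62% of all genes did. The smallest p in the liver was that of Ccne2, at 1.64 ± 0.69 as a difference of log2 fold changes (SE, unadjusted p = 0.0281, adjusted p = 0.497 in edgeR), lower with NMN at 1340 mg/kg/d and higher at 2680 mg/kg/d. In the kidney it was that of Rrm2, with 1.21 ± 0.43 (unadjusted p = 0.0108, adjusted p = 0.999), which had -0.83 at 1340 mg/kg/d and 0.39 at 2680 mg/kg/d. The 2 schedules have separate mice and controls. Of the 18 members tested in the liver under both, 6 were higher in both, 5 lower in both and 7 opposite, and of 28 in the kidney 2 were higher, 17 lower and 9 opposite. E2f1, Mcm2 and Rrm1 were lower in all 4 comparisons, none of them called, and E2f1 had estimates from -0.14 in the kidney at 2680 mg/kg/d to -1.22 in the liver at 2680 mg/kg/d. The share of all genes that were lower in all 4 was not counted. Mcm2 was close to 0 in the liver at 1340 mg/kg/d (-0.033). Its sign changed with single libraries left out there and in both organs at 2680 mg/kg/d.

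Mice of 1 group differed among themselves, and many members did so together. In the kidneys of NMN mice at 1340 mg/kg/d the first mouse had the highest level of its group for 21 of the 29 members tested (72.4%), where it was the highest for 28.9% of all genes tested. Its Mki67 was 4.61 CPM, while the other 3 reached no more than 2.15 CPM. The first water mouse of that schedule was the highest for 16 of 29 (55.2%, against 31.5% of all genes), and in the kidneys at 2680 mg/kg/d the second water mouse for 17 of 29 (58.6% against 34%). In the liver the fourth water mouse at 1340 mg/kg/d was the highest for 8 of 18 (44.4% against 22.2%), and at 2680 mg/kg/d the second NMN mouse was the highest for 12 of 20 (60% against 39.2%) and the second water mouse for 10 of 20 (50% against 34.2%). Without the first NMN mouse, the median of the members in the kidney at 1340 mg/kg/d was -0.28, with log2 fold changes of -1.26 for Rrm2, -1.29 for Mki67, -1.25 for Tpx2 and -1.01 for Top2a (edgeR, adjusted p = 0.073, 0.119, 0.417 and 0.333), so that still no member was called. With each library left out in turn, the median in these kidneys ran from -0.28 to -0.11 (without the fourth NMN mouse), and Rrm2 reached -0.66, Tpx2 -0.61, Mki67 -0.54 and Top2a -0.43 at the other end. In the kidney at 2680 mg/kg/d the median ran from -0.23 (without the first water mouse) to -0.039 (without the first NMN mouse), and was -0.053 without the second water mouse. In the liver it ran from -0.19 (without the first water mouse) to -0.026 (without the fourth) at 1340 mg/kg/d, and from 0.049 (without the third water mouse) to 0.21 (without the third NMN mouse) at 2680 mg/kg/d.

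**Figure D4:**
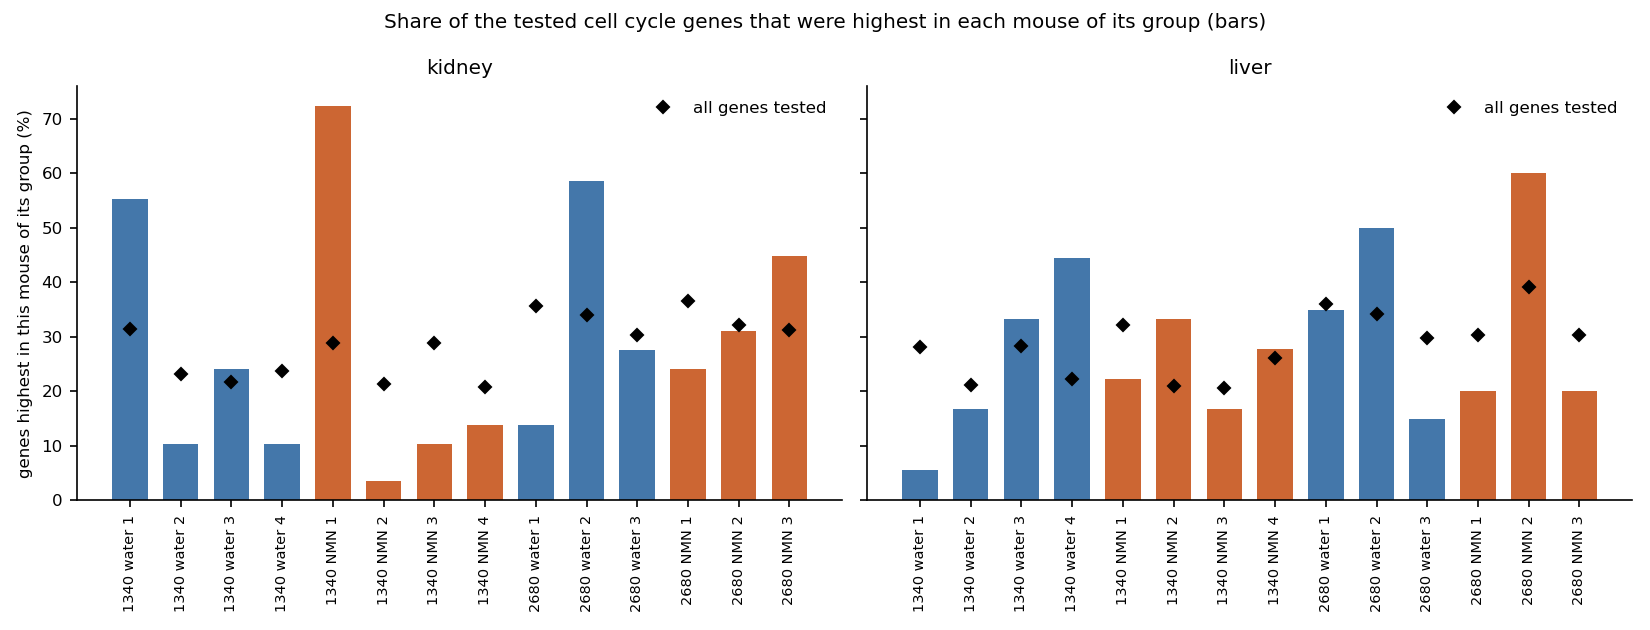
Share of the tested members that were highest in each mouse among the mice of its group (bars, in percent; water blue, NMN orange), with the same share over all genes tested (diamonds), for kidney (left) and liver (right). The first NMN kidney of the 1340 mg/kg/d schedule reaches 72.4%, where all genes give 28.9%.

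Other genes of the cell cycle were read from 4 further lists, and none of their members was called by edgeR in any comparison of NMN with water. DESeq2 called 4 of them, all listed as brakes on the cycle and all higher with NMN at 2680 mg/kg/d: E2f5 and Gadd45b in the liver, and Ccng1 and Gadd45g in the kidney. These are 2 of 25 brakes in each organ, where DESeq2 called 11.6% of all genes in the liver and 1.52% in the kidney. For 34 further genes of S phase, 5 of 29 tested were higher and 24 lower in the kidney at 1340 mg/kg/d (median -0.24), 13 higher and 16 lower in the kidney at 2680 mg/kg/d (-0.018), 9 and 16 of 25 in the liver at 1340 mg/kg/d (-0.15), and 11 and 14 of 25 in the liver at 2680 mg/kg/d (-0.13). Among their smallest p values were those of Rpa2 (-0.58), Cdt1 (-0.53) and Mcm8 (0.50) in the kidney at 1340 mg/kg/d, Pole (0.46) and Ung (0.55) in the kidney at 2680 mg/kg/d, Mcm10 (-0.62), Dut (-0.43) and Pola2 (-0.42) in the liver at 1340 mg/kg/d, and Ung (0.81) and Mcm10 (-0.53) in the liver at 2680 mg/kg/d. Mcm10, which helps to load the polymerase, had the lowest adjusted p of the list in the liver at 1340 mg/kg/d (0.424 in edgeR). At an unadjusted p of 0.05, 2 genes of the list passed in the kidney at 1340 mg/kg/d, 0 in the kidney at 2680 mg/kg/d, 1 in the liver at 1340 mg/kg/d and 5 in the liver at 2680 mg/kg/d, beside 8.94%, 11.1%, 6.86% and 24.6% of all genes.

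For 63 further genes of G2 and mitosis, 12 of 38 tested were higher and 26 lower in the kidney at 1340 mg/kg/d (median -0.15), and 13 and 25 in the kidney at 2680 mg/kg/d (-0.086). In the liver it was 6 and 13 of 19 at 1340 mg/kg/d (-0.11), and 12 and 11 of 23 at 2680 mg/kg/d (0.048). The smallest p values were those of Cdca3 (-0.80), Kif20b (-0.57) and Hmmr (-1.24) in the kidney at 1340 mg/kg/d, Cks2 (-0.32), Incenp (-0.41) and Kif4 (-1.04) in the kidney at 2680 mg/kg/d, Spc24 (-0.44), Cks2 (-0.44) and Cks1b (-0.59) in the liver at 1340 mg/kg/d, and Hjurp (-0.48), Ccnf (-0.83) and Ncapd2 (-0.84) in the liver at 2680 mg/kg/d. All of these estimates were below 0. At an unadjusted p of 0.05, 3 of 38, 3 of 38, 2 of 19 and 1 of 23 genes of the list passed in the kidney at 1340 and 2680 and the liver at 1340 and 2680 mg/kg/d, all of them lower, where 8.94%, 11.1%, 6.86% and 24.6% of all genes passed in either direction.

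For 11 further G1 cyclins, kinases and E2F partners, of which 10 could be tested everywhere, between 3 and 5 were higher in each comparison, and the medians lay between -0.12 and 0.034. Cdk4, the partner of cyclin D1, had log2 fold changes of -0.11 and -0.19 in the kidney at 1340 and 2680 mg/kg/d and -0.39 in the liver at 1340 mg/kg/d. The others named by their p were Ccnd3 (0.13) and Cdc25a (-0.16) in the kidney at 1340 mg/kg/d, Tfdp1 (0.22) and Cdk6 (-0.15) in the kidney at 2680 mg/kg/d, Myc (-1.34) and Cdk6 (-0.26) in the liver at 1340 mg/kg/d, and Tfdp2 (0.70), Cdk6 (-0.46) and E2f2 (-1.50) in the liver at 2680 mg/kg/d.

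The 28 genes listed as brakes on the cell cycle (inhibitors of cyclin-dependent kinases, pocket proteins, repressor E2Fs and stress-induced arrest genes) went in both directions in all 4 comparisons. Of 25 tested, 15 were higher in the kidney at 1340 mg/kg/d (median 0.19), 12 in the kidney at 2680 mg/kg/d (-0.015), 14 in the liver at 1340 mg/kg/d (0.11) and 15 in the liver at 2680 mg/kg/d (0.26). Of all genes tested, 49.7%, 49.2%, 50.5% and 49.6% were lower in these comparisons, so the brakes were not far from an even split. Gadd45b, a stress-induced arrest gene, was at 0.986, 0.599 and 0.166 CPM in the water livers at 2680 mg/kg/d and 1.55, 2.94 and 3.82 CPM in the NMN livers. The lowest of these levels, 0.166 CPM, was close to the lower limit of counting. Each NMN liver was above each water liver, where 29.2% of all genes did not overlap. The log2 fold change was 2.24 ± 0.63 (SE, edgeR, unadjusted p = 0.00421, adjusted p = 0.054). It was 2.04 ± 0.75 in the liver at 1340 mg/kg/d (adjusted p = 0.631), where the groups overlapped, and 0.60 ± 0.23 in the kidney at 2680 mg/kg/d (adjusted p = 0.354). Ccng1, a p53 target, had 0.48 in the liver and 0.38 in the kidney at 2680 mg/kg/d (edgeR, adjusted p = 0.0728 and 0.128). The other brakes with the smallest p were E2f5 (0.84) in the liver at 2680 mg/kg/d, Ccng2 (0.62) and Btg2 (1.20) in the liver at 1340 mg/kg/d, Ccng2 (0.41), Btg1 (0.29) and Lin52 (0.28) in the kidney at 1340 mg/kg/d, and Gadd45g (0.81) in the kidney at 2680 mg/kg/d. At an unadjusted p of 0.05, 3 and 4 of the 25 brakes passed in the kidney at 1340 and 2680 mg/kg/d (8.94% and 11.1% of all genes) and 2 and 8 in the liver (6.86% and 24.6%), all of them higher but for 2 of the 8.

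Markers of cell types were read beside the members, since the mix of cells in a sample can move with a treatment. In the kidney the summed level of 8 proximal tubule markers was lower in all NMN mice than in all water mice, at 18211 to 23523 against 23725 to 30759 CPM at 1340 mg/kg/d and 19124 to 24136 against 26277 to 28177 CPM at 2680 mg/kg/d. Kap made up more than any other marker, at a mean of 11437 CPM with NMN and 15511 CPM with water at 1340 mg/kg/d, and at 12230 and 16503 CPM at 2680 mg/kg/d. The 8 markers of other nephron segments summed to 3837 to 4059 CPM with NMN and 3028 to 3517 CPM with water at 1340 mg/kg/d, and overlapped at 2680 mg/kg/d. In the liver at 2680 mg/kg/d the summed level of the 8 hepatocyte markers was lower with NMN, 156189 to 185669 against 215932 to 245342 CPM, with 6 of the 8 lower and 2 higher, and the sums overlapped at 1340 mg/kg/d. Among single markers Ttr (-0.97), Serpina1c (-0.58), Cd4 (-2.86) and Alas2 (-1.72) fell in the liver at 2680 mg/kg/d and Miox (-0.82) fell in the kidney at 2680 mg/kg/d (log2 fold changes, all past an adjusted p of 0.05 in edgeR). Markers of the same lists had the other sign in the liver at 2680 mg/kg/d, among them Hnf4a of the hepatocyte list (0.57, edgeR, adjusted p = 0.0663) and Tfrc of the erythroid list (1.45, adjusted p = 0.079), both called higher by DESeq2, and 5 of the 7 erythroid markers tested were higher. The part of these shifts, and of the difference in depth between the kidney groups, in the levels of the members was not tested.

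Lymphocytes and erythroid precursors, which can divide in the adult, were also looked for through their markers. The 10 lymphocyte markers summed to 8.05 to 9.24 CPM in the NMN livers and 10.2 to 15.2 CPM in the water livers at 1340 mg/kg/d, without overlap, and overlapped in the other 3 comparisons. Ptprc (CD45, carried by all white blood cells) was their most abundant gene, at 4.77 CPM with NMN and 4.99 CPM with water in the livers at 1340 mg/kg/d, and Cd8a had no read in any of the 4 NMN libraries. Only 3 of the 10 lymphocyte markers had enough reads for the test in those livers, and none was called. The 10 erythroid markers summed to between 107 and 272 CPM in a library. These sums overlapped between NMN and water in both kidney comparisons and in the liver at both schedules, with Tfrc (means of 54.5 and 60.9 CPM in the water kidneys) or Alas2 (144 CPM in the water livers of either schedule) as their most abundant gene and Gata1, the factor of erythroid precursors, at 0 reads in every library. The summed levels of the myeloid, endothelial, mesenchymal and bile duct markers overlapped between NMN and water in all 4 comparisons. Their most abundant genes in the liver were Clec4f of Kupffer cells (means of 60.9 and 89.8 CPM with water at 1340 and 2680 mg/kg/d), Stab2 (29.9 and 54.4 CPM), Dcn (177 and 238 CPM) and Spp1 (54.9 and 66.7 CPM). In the kidney they were Csf1r (36.4 and 30.3 CPM), Emcn (35.3 and 53.4 CPM), Spp1 (483 and 508 CPM), and of the mesenchymal list Col1a2 at 1340 mg/kg/d (38.5 CPM) and Dcn at 2680 mg/kg/d (38.1 CPM). Single markers did not all overlap, as Dcn was at 40.5 to 61.2 CPM in the NMN kidneys and 34.5 to 40.1 CPM in the water kidneys at 2680 mg/kg/d. The part of lymphocytes in the levels of the members was not tested.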

How the data were processed

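Polyadenylated RNA of 28 libraries was sequenced by the authors, aligned with STAR (their methods name the genome as mm19, a build not resolved here) and counted with HTSeq without strand, and the deposited values are raw read counts per gene. Gene names and exon lengths were taken from GENCODE M21 (53229 identifiers with the same version, 1180 without, 37 unmatched), and promoters from RefSeq GRCm38.p6. Reads without a gene (18.6 to 29.3% per library) stayed out of library sizes. Groups came from the labels. Counts were tested in R 4.3.3 with edgeR 4.0.16 (filterByExpr, TMM, robust quasi-likelihood test, two-sided, Benjamini-Hochberg adjustment over all genes tested, threshold 0.05), and DESeq2 1.42.0 was an alternative. The scripts were tested on simulated data. The labels number the samples of each group and do not say which library came from which mouse, so p-values measure the spread between these samples. Values in every library are given for the 3 members with the smallest p in each NMN comparison and for Mki67, Top2a, Ccnd1, Cdk1, Pcna and Mcm2, log2 fold changes for the 3 genes with the smallest p of each further list (1 gene is not reported here), and levels for the most abundant marker of each cell type. The members and lists were chosen with earlier results of these data known. The alternatives were the normalization, the filter, the dispersion, the threshold, the libraries in the fit, a replicate block and leaving out each library.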

Additional observations from a re-analysis of the deposited data

Results flagged for a closer look

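Among 48 groups of 4 mice (12 members with full values), 4 had a mouse far from the other 3 by Dixon's criterion at its 95% critical value, and chance alone gives about 1 in 20 such groups. In the kidneys of NMN mice at 1340 mg/kg/d, the third mouse had the lowest Ccne2 level, 0.681 CPM, where the next was 1.15 CPM. The same mouse had the highest E2f1 level, 3.12 CPM, where the next was 1.52 CPM. The first mouse of that group had the highest Tyms level, 15.7 CPM, where the next was 13.04 CPM. In the livers of NMN mice at 1340 mg/kg/d, the third mouse had the highest Pcna level, 29.5 CPM, where the next was 26.7 CPM.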

How the results depend on the processing

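The count of members called with NMN was 0 in each comparison whichever library was left out, and with DESeq2, DESeq2 size factors, upper quartile scaling, a minimum of 10 counts in every library, non-robust dispersion, 1 fit for all libraries of an organ, and a stricter threshold. Exceptions came from using no filter, the replicate block and an unadjusted p. With no filter, Rrm2 was called lower in the liver at 2680 mg/kg/d (1 member), and in the kidney at 2680 mg/kg/d Tyms was called higher (1) and Ccnd1 lower (1). With an unadjusted p, members called were 1 lower in the liver and 1 lower in the kidney at 1340 mg/kg/d, and at 2680 mg/kg/d 1 higher and 2 lower in the liver and 1 higher and 3 lower in the kidney. The cause of these differences was not tested.

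The number of all genes called moved more. In the liver at 1340 mg/kg/d it was 2, and became 74 with DESeq2, 44 with no filter, 6 with 1 fit for the organ, 854 with an unadjusted p, 0 with an adjusted p of 0.01 and a fold over 2, and 0 to 18 with 1 library left out. In the liver at 2680 mg/kg/d it was 883, and became 1448, 1785 with no filter, 3072 unadjusted, 135 with the stricter rule and 211 to 1308 with 1 library left out, the lowest being without the second water mouse. In the kidney at 1340 mg/kg/d it was 18, and became 159, 269, 5 with non-robust dispersion, 1338, 2 and 5 to 67. In the kidney at 2680 mg/kg/d it was 61, and became 236, 514, 35 with 1 fit for the organ, 1688, 3 and 3 to 191. For the difference between schedules it was 10 in the liver (99 with DESeq2, 71 with no filter, 7 to 25 with 1 library left out) and 1 in the kidney (10 with DESeq2, 106 with no filter, 0 with upper quartile scaling, with a minimum of 10 counts and with non-robust dispersion, and 0 to 1 with 1 library left out).

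Between the organs of water mice, the median log2 fold change of the tested members was -0.20 at 1340 mg/kg/d, and -0.71 with DESeq2, -0.35 with upper quartile scaling, -0.75 with no filter, 0.11 with a minimum of 10 counts and -0.67 to -0.075 with 1 library left out. At 2680 mg/kg/d it was -0.38, and -0.67 with DESeq2, -0.69 with no filter, 0.038 with a minimum of 10 counts and -0.53 to -0.10 with 1 library left out. With a minimum of 10 counts, which tests fewer genes, 4 and 3 members were called lower in the liver (10 and 8 otherwise). Members called higher in the liver numbered 6 at 1340 mg/kg/d (3 to 7 with 1 library left out) and 5 at 2680 mg/kg/d (3 with upper quartile scaling, 3 to 6 with 1 library left out).

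The labels number the samples of each group, and the numbers were not found to pair them, since in no comparison did every same-numbered pair of libraries correlate above 0.1 in deviation from the group means (mean r of 0.0355, 0.0958, 0.0288 and 0.0209 for NMN in the liver at 1340 and 2680 and the kidney at 1340 and 2680 mg/kg/d, and 0.102 and 0.0742 between the organs). A library correlated best with its own number in 1 of 4, 3 of 3, 2 of 4, 1 of 3, 3 of 4 and 3 of 3 cases. With the replicate block the genes called were 16 in the liver and 75 in the kidney at 1340 mg/kg/d and 92 in the kidney at 2680 mg/kg/d, 1 member (Rrm2, -1.63, edgeR, adjusted p = 0.0438) was called in the liver at 2680 mg/kg/d, and between the organs at 1340 mg/kg/d the median was -0.36 and 3 members were called higher in the liver, without Ccne2 (1.05), E2f1 (0.83) and Rrm2 (0.88). Between the organs at 2680 mg/kg/d Mki67 was called with the block (-1.41, edgeR, adjusted p = 0.0376) and Top2a was not (-1.26, adjusted p = 0.104).

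Estimates near 0 changed sign. Cdk1 in the liver at 1340 mg/kg/d was -0.035 with the block (0.054 without), Pcna in the liver at 2680 mg/kg/d was -0.031 with upper quartile scaling (0.019), Pcna in the kidney at 2680 mg/kg/d was 0.021 with no filter, 5.01e-05 with a minimum of 10 counts and 0.000105 with the block (-0.00094), and Cdk1 between the organs at 2680 mg/kg/d was -0.012 with upper quartile scaling (0.14). With 1 library left out, signs changed for Cdk1 (-0.27 to 0.41), Mcm2 (-0.29 to 0.24) and Ccnd1 (-0.033 to 0.30) in the liver at 1340 mg/kg/d, for Cdk1 (-0.37 to 0.32), Pcna (-0.036 to 0.052) and Mcm2 (-0.32 to 0.049) in the liver at 2680 mg/kg/d, and for Pcna (-0.041 to 0.022), Mki67 (-0.32 to 0.26) and Mcm2 (-0.12 to 0.037) in the kidney at 2680 mg/kg/d. They also changed in the difference between schedules for Cdk1 (-0.50 to 0.28) and Mcm2 (-0.42 to 0.12) in the liver, where the median of the members ran from 0.029 to 0.28, and for Cdk1 (-0.10 to 0.57) and Top2a (-0.016 to 0.57) in the kidney, and between the organs for Cdk1 (-0.40 to 0.22 and -0.25 to 0.46). Reads limit these results most for the mitotic genes of the liver, where 17 and 15 members could not be tested.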
